A study of Arabidopsis thaliana with 6 samples.

Results

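The arabinogalactan protein (AGP) genes described here are 10 loci, followed across 3 dexamethasone libraries and 3 mock libraries of the Arabidopsis thaliana inflorescence apex. They were taken by locus identifier from the 28775 loci counted: AGP12 (AT3G13520), AGP21 (AT1G55330), AGP15 (AT5G11740), AGP20 (AT3G61640), AGP16 (AT2G46330), AGP1 (AT5G64310), AGP4 (AT5G10430), AGP9 (AT2G14890), AGP18 (AT4G37450) and AGP31 (AT1G28290). The list was chosen by gene family, but with the measured dexamethasone against mock differences in CPM of these same libraries in view. The differences of these 10 genes are therefore given as a description, without a test.

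Dexamethasone, a synthetic glucocorticoid, permitted expression of AP2m3, a version of the floral regulator APETALA2 (AP2). Plants of the other group were mock-treated, and what the mock treatment contained was not stated. All plants grew at 21 °C in long days of 16 h light and 8 h dark, were treated 2 weeks after bolting, and were sampled 6 to 8 h later as inflorescence meristems stripped of visible flower primordia. Neither the strain, nor the promoter that drives AP2m3, nor any pooling of plants was stated. The AP2 transcript averaged 1099 ± 89.3 CPM (counts scaled to a common library total) in dexamethasone libraries and 64.8 ± 11.8 CPM in mock libraries (SD, n = 3 each).

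AGPs are secreted proteins of the plant cell surface. Their short protein backbones are rich in proline, alanine, serine and threonine. The prolines are hydroxylated, and large arabinogalactan chains are then attached to them in the Golgi. Many AGPs are tethered to the plasma membrane by a glycosylphosphatidylinositol (GPI) anchor, and the family is linked to cell expansion, wall assembly and reproduction. Among the 10, AGP12, AGP21, AGP15, AGP20 and AGP16 encode AG peptides, in which the mature backbone is very short. AGP1, AGP4 and AGP9 encode classical AGPs, AGP18 a lysine-rich classical AGP, and AGP31 a non-classical AGP with a histidine-rich stretch.

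The coding sequences of the 5 AG peptides are shown because the largest differences in both directions lay among them. They are RefSeq sequences of assembly TAIR10.1, read 5′ to 3′ on the coding strand, the longest one annotated for each gene. Capitals mark each proline codon that has an alanine, serine or threonine codon beside it, together with that neighbour.
AGP12: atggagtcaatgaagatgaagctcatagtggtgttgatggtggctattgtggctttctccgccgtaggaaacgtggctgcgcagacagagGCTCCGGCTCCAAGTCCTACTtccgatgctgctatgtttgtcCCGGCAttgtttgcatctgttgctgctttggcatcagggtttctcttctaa
AGP21: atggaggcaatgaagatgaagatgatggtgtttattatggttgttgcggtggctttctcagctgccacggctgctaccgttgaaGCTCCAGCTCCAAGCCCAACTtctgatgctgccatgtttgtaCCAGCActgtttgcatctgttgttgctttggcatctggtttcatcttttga
AGP15: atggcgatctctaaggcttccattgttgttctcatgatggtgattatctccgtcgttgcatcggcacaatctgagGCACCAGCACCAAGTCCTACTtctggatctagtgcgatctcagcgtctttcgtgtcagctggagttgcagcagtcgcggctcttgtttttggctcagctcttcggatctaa
AGP20: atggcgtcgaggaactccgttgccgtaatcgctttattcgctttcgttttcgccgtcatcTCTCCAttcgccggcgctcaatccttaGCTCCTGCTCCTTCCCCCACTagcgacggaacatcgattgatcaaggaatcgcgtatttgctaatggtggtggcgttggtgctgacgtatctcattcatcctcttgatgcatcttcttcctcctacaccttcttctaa
AGP16: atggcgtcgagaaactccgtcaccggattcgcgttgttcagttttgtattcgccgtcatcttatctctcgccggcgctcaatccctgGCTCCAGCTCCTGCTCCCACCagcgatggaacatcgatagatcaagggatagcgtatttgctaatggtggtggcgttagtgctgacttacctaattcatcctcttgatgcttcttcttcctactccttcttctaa
The longest block of capitals in each of the 5 spans 7 codons, in which alanine, serine or threonine codons alternate with proline codons. The block is GCTCCGGCTCCAAGTCCTACT in AGP12 and GCTCCAGCTCCTGCTCCCACC in AGP16. The 5 coding sequences are 177 to 225 bases long. By global alignment they form 2 close pairs. AGP16 and AGP20 were identical at 84.4% of alignment columns and AGP12 and AGP21 at 74.3%, whereas the other AG peptide pairs reached 45.9% to 57.6%. The 5 longer members had coding sequences of 396 (AGP1), 408 (AGP4), 576 (AGP9), 837 (AGP18) and 1080 (AGP31) bases. Codons for proline, alanine, serine and threonine made up 72.6% of the AGP4 and 71.7% of the AGP9 codons, 59.5% for AGP1, 53.6% for AGP18 and 43.5% for AGP31. Lysine codons made up 14.2% of AGP31 and 5.76% of AGP18.

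Sequencing depth was 1633571 to 2196781 counts a library. A gene without a count could therefore still lie at up to 1.37 to 1.84 CPM (3 counts, counting error only). Meristem markers were present: STM averaged 72.6 CPM with dexamethasone and 65.4 CPM in mock, while CLV3 had no count in any library. Of the marker lists, the 6 flower primordium genes summed to 678 to 694.5 CPM in dexamethasone libraries and 819 to 904 CPM in mock libraries. Of these, 3 of 6 tested genes were called lower (background 8.02%). AP1, LFY and SEP3 were called, with log2 fold changes of -0.92, -1.07 and -0.97. AP3, PI and AG were not, at 0.32, 0.04 and -0.15. For 5 leaf photosynthesis genes the sum was 2986 to 3228 CPM against 4993 to 6612 CPM (4 of 5 lower). The 6 vascular genes summed to 74.9 to 107 CPM against 92.7 to 166 CPM (2 of 5 lower). SUC2 and SEOR1 were called there (-0.72 and -0.76), while APL, XCP1 and XCP2 had 0.29, 0.26 and -0.39. The 5 meristem genes summed to 258 to 276 CPM against 196 to 227 CPM (1 of 3 higher, background 5.86%). CLV1 was the gene called there (0.72), at 93.0 CPM with dexamethasone against 56.2 CPM in mock. STM and KNAT1 were not called, at 0.15 and 0.30, and the untested WUS averaged 4.35 against 4.86 CPM. For 6 anther and pollen genes the sum was 115 to 151 CPM against 65.8 to 163 CPM. Of the latter 0 of 3 were called by edgeR, with 0 at an unadjusted p under 0.05. In such bulk samples fewer cells of a type and less RNA per cell cannot be told apart, and the part of these shifts in the AGP values was not tested.

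All 10 genes passed the filter on low counts. In 9 of them the dexamethasone mean was the higher one, and in AGP16 it was the lower one. The groups did not overlap in 9 genes, 8 with the dexamethasone libraries higher (background 15.1% of 15857 tested genes) and 1 with them lower (background 15.9%). Past an edgeR adjusted p of 0.05 lay 6 genes on the higher side, where 5.86% of all tested genes lay, and 1 on the lower side, where 8.02% lay. In either direction 7 genes lay past the threshold (background 13.9%) and 9 did not overlap (background 31%). Nothing is read from these counts, because the list was drawn up with the comparison known. The median log2 fold change of the 10 genes was 0.51, against 0.0035 over all tested genes. Together the 10 genes summed to 2433 ± 49.3 CPM in dexamethasone libraries and 1775 ± 216 CPM in mock libraries (SD, n = 3 each).

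**Figure D1:**
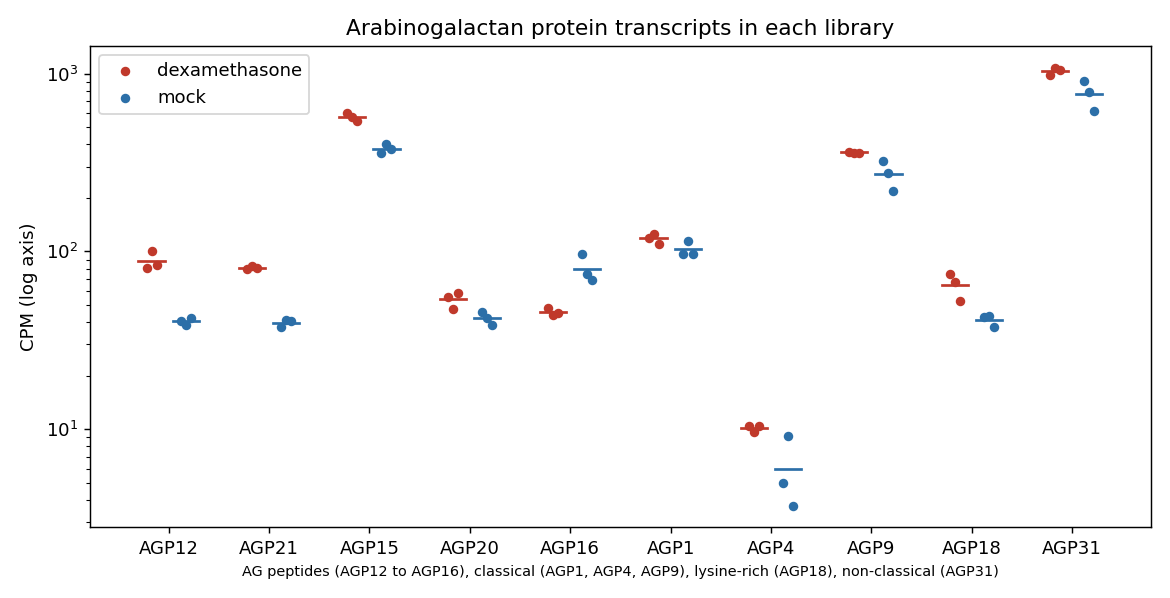
Level of each of the 10 AGP transcripts in CPM (log axis) in the 3 dexamethasone libraries (red, left) and the 3 mock libraries (blue, right); points are libraries and lines are group means. The groups are apart in every gene but AGP1, and AGP16 is the gene with its mock libraries on top.

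The AG peptides held the widest differences. AGP12 stood at 81.1, 100.6 and 84.3 CPM with dexamethasone (libraries Dx4, Dx5, Dx6), against 40.7, 38.5 and 42.3 CPM in mock (CT1, CT2, CT3). Every dexamethasone library was thus well above the narrow band of the mock libraries, and the log2 fold change was 1.13 ± 0.14 (SE). AGP21, an AG peptide that influences root hair cell fate, stood at 79.5, 82.95 and 80.5 CPM with dexamethasone, against 37.6, 41.3 and 40.5 CPM in mock. Here too both groups were tight and apart, with a log2 fold change of 1.02 ± 0.14. In the annotation 83.3% of the 50-base words of the AGP21 exons also lie in an overlapping gene on the other strand, AT1G55335, so without a stated strand setting its counts could include reads of that gene.

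AGP15 was the most abundant AG peptide, also per kb of exon, at 603, 574 and 544 CPM in dexamethasone libraries, against 358, 400.2 and 375 CPM in mock libraries. The lowest dexamethasone library lay above the highest mock library, and the log2 fold change was 0.60 ± 0.11. AGP20 stood at 55.4, 47.6 and 58.6 CPM with dexamethasone and 45.7, 42.2 and 38.6 CPM in mock. The groups were apart by a small margin between Dx5 and CT1, with a log2 fold change of 0.36 ± 0.15.

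AGP16, the close relative of AGP20, differed in the other direction. It had 48.2, 43.9 and 44.8 CPM in dexamethasone libraries, against 96.5, 74.3 and 68.8 CPM in mock libraries. All dexamethasone libraries lay below all mock libraries, with CT1 the highest, and the log2 fold change was -0.80 ± 0.15. AGP16 shares 17.02% of its 50-base words with AT2G46320, a gene on the other strand, which averaged 16.6 ± 4.42 CPM with dexamethasone and 18.4 ± 3.43 CPM in mock (SD, n = 3 each). No 50-base word of AGP16 lies in AGP20, so the similarity of the 2 genes does not extend to stretches of that length.

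Counts within a library can be compared free of the scaling between libraries. AGP16 supplied 5.41 ± 0.21% of the counts of the 5 AG peptides in dexamethasone libraries and 13.8 ± 2.52% in mock libraries (SD, n = 3 each). The ratio of AGP16 to AGP20 counts was 0.871, 0.921 and 0.764 in Dx4, Dx5 and Dx6, and 2.11, 1.76 and 1.78 in CT1, CT2 and CT3. The more abundant gene of this pair thus differed between the groups, also per kb of exon, where the ratio was 0.667 ± 0.063 with dexamethasone and 1.475 ± 0.153 in mock. The ratio of AGP12 to AGP21 counts, in contrast, was 1.02 to 1.21 in dexamethasone libraries and 0.933 to 1.08 in mock libraries, and these ranges overlap. AGP15 made up 67.0% to 69.5% of AG peptide counts with dexamethasone and 61.9% to 67.1% in mock, also overlapping ranges.

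**Figure D2:**
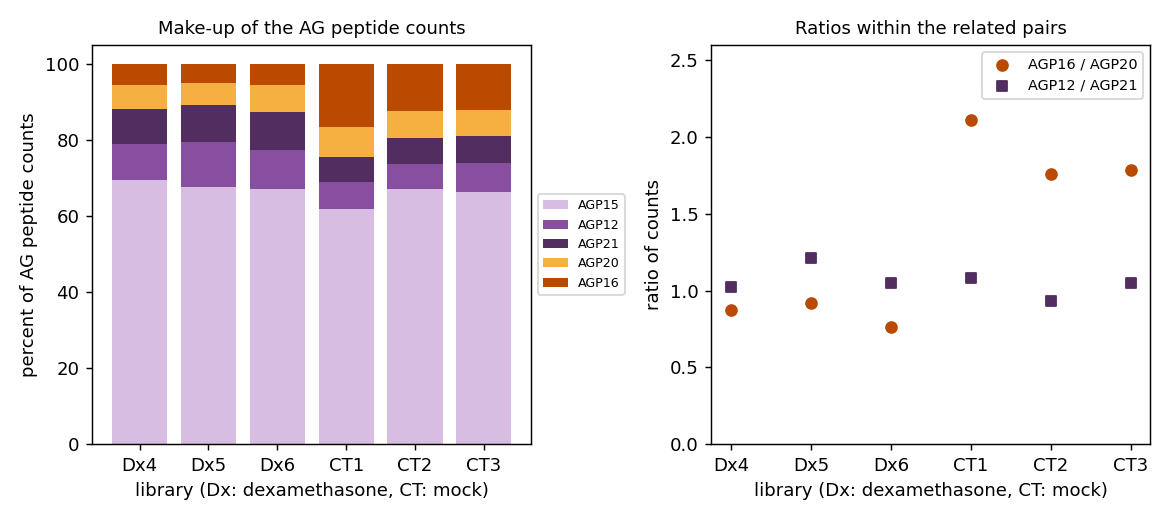
Left, percent of the summed counts of the 5 AG peptides that each gene supplied, by library (Dx, dexamethasone; CT, mock). Right, ratio of counts in the related pairs AGP16 to AGP20 (circles) and AGP12 to AGP21 (squares); the first is 0.764 to 0.921 with dexamethasone and 1.76 to 2.11 in mock, while the ranges of the second overlap.

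Of the classical AGPs, AGP9 had the highest level, also per kb. It stood at 363, 359.6 and 358 CPM in Dx4, Dx5 and Dx6, against 324, 275 and 219 CPM in CT1, CT2 and CT3. The dexamethasone libraries were nearly equal, whereas the mock libraries were spread out, and the log2 fold change was 0.41 ± 0.13. AGP1 stood at 119.5, 125 and 110 CPM with dexamethasone and 97.1, 114 and 97.2 CPM in mock. Its groups overlapped, through Dx6 and CT2, and the log2 fold change was 0.20 ± 0.13. AGP4, which in the pistil helps to keep further pollen tubes away from a fertilised ovule, was the least abundant gene, at 10.4, 9.63 and 10.5 CPM with dexamethasone and 5.01, 9.17 and 3.72 CPM in mock. These values rest on 18 to 22 counts in the dexamethasone libraries and 8 to 20 in the mock libraries. The mock library CT2 came close to the dexamethasone libraries, and the log2 fold change of 0.74 ± 0.34 was 1.23 without CT2 and 0.46 without CT3. A gene on the other strand, AT5G10435, shares 33.2% of the 50-base words of AGP4, so its counts carry the same doubt as those of AGP21.

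AGP18, which is needed for development of the female gametophyte, stood at 74.5, 67.4 and 52.4 CPM in dexamethasone libraries, against 42.6, 43.55 and 37.7 CPM in mock libraries. All dexamethasone libraries were above the mock libraries, with Dx6 the nearest to them, and the log2 fold change was 0.65 ± 0.16. AGP31, a pectin-associated wall protein made mainly in vascular tissue, had the highest level of the 10 genes, also per kb. It stood at 983, 1078 and 1050 CPM with dexamethasone, against 913, 789.9 and 615 CPM in mock. As for AGP9, the mock libraries were spread and CT1 was the nearest to the dexamethasone group, with a log2 fold change of 0.43 ± 0.13. Among the mock libraries the summed vascular markers given above were lowest in CT1 (92.7 CPM) and highest in CT3 (166 CPM). That sum joins SUC2 and SEOR1, which were called lower, with genes that were not called, such as XCP1 and XCP2. Whether vascular content had a part in the AGP31 values was not tested.

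**Figure D3:**
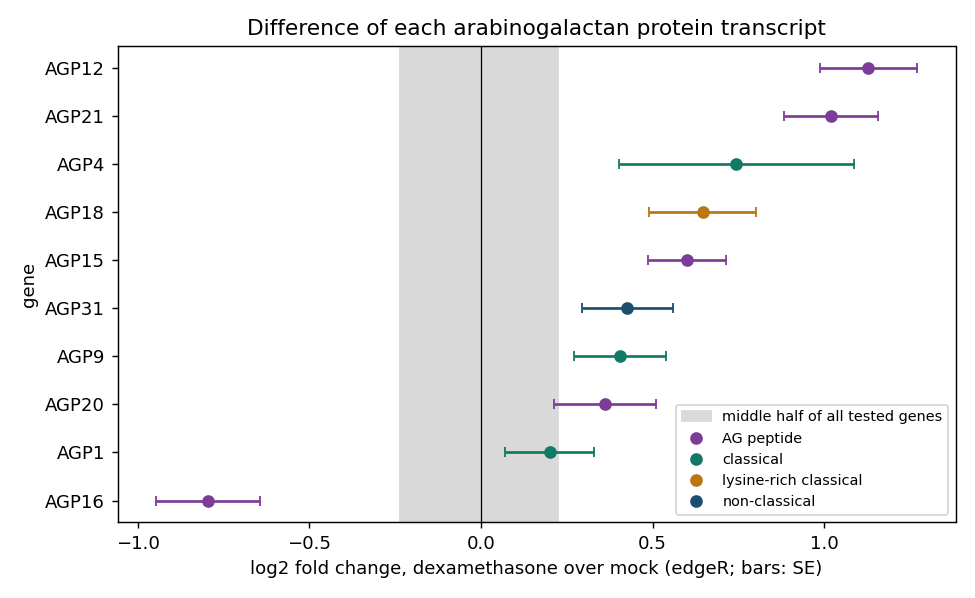
Log2 fold change of each AGP transcript, dexamethasone over mock, with its SE (edgeR), coloured by class. The grey band is the interquartile range of all 15857 tested genes, -0.24 to 0.22; AGP12 and AGP21 lie highest at 1.13 and 1.02, and AGP16 lies lowest at -0.80.

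The differences of AGP12, AGP21 and AGP15 moved little when 1 library was left out, within 1.03 to 1.18, 0.98 to 1.05 and 0.56 to 0.64 on the log2 scale. AGP16 ranged from -0.89 (without CT3) to -0.65 (without CT1), and AGP18 from 0.53 (without Dx4) to 0.78 (without Dx6). For AGP31 and AGP9 leaving out the mock library CT3 moved the values most. Without it their log2 fold changes were 0.29 and 0.27, and without CT1 they were 0.56 and 0.54.

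Within the mock group AGP31, AGP9, AGP16 and AGP20 were each highest in CT1 and lowest in CT3. AGP12, AGP21, AGP15, AGP18, AGP4 and AGP1 were not. The share of all tested genes in this order was not determined, so nothing is read from the number of AGP genes in it. The same libraries were in this order for the summed level of 8 dawn-phased clock genes, which was 61.9, 53.5 and 41.4 CPM with dexamethasone (Dx4, Dx5, Dx6) and 165, 121 and 73.5 CPM in mock (CT1, CT2, CT3). Only 3 of these 8 genes passed the filter on low counts, and 1 was called lower (background 8.02%). All 8 entered the sum and the mean used below, and the list came from an earlier analysis of these data. The summed leaf photosynthesis markers ran in that order too, at 3228, 2986 and 3059 CPM with dexamethasone (Dx4, Dx5, Dx6) and 6612, 5876 and 4993 CPM in mock (CT1, CT2, CT3). The part of either gene list in the AGP values was not tested beyond a fit with the clock genes. With the mean log2 CPM of these clock genes as a covariate, the log2 fold changes were 0.78 for AGP31, 0.755 for AGP9, 0.85 for AGP18 and -0.50 for AGP16, while AGP12 and AGP21 had 1.11 and 0.98. The score and the treatment are partly confounded, since all dexamethasone libraries had lower sums than all mock libraries.

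**Figure D4:**
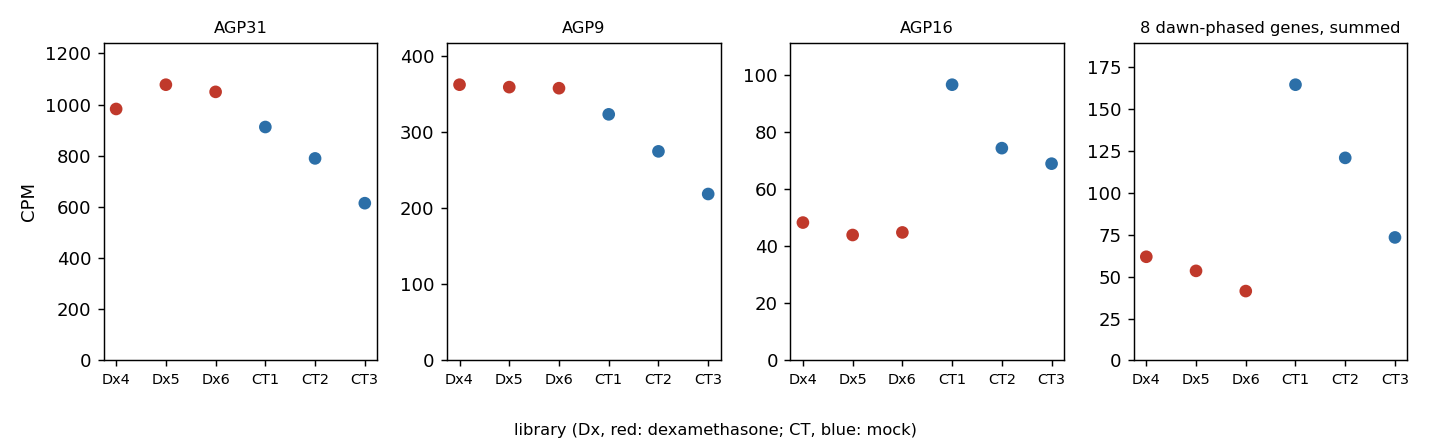
CPM of AGP31, AGP9 and AGP16 and the summed CPM of 8 dawn-phased clock genes in each library (Dx, red, dexamethasone; CT, blue, mock). In mock all 4 are highest in CT1 and lowest in CT3; with dexamethasone AGP31 and AGP9 are above, and AGP16 and the clock genes below, the mock libraries.

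Levels of different genes were compared as CPM per kb of exon. In dexamethasone libraries the order was AGP31 (699.8 ± 32.9 CPM per kb), AGP15 (555 ± 28.7), AGP9 (206 ± 1.34), AGP21 (189.6 ± 4.19), AGP1 (125 ± 8.1), AGP12 (109.5 ± 12.9), AGP20 (62.5 ± 6.53), AGP18 (48.6 ± 8.47), AGP16 (41.4 ± 2.08) and AGP4 (10.45 ± 0.48). In mock libraries it was AGP31 (521 ± 101 CPM per kb), AGP15 (365.5 ± 20.4), AGP9 (156 ± 30.0), AGP1 (108.5, from 102.6 to 120.2), AGP21 (93.1 ± 4.53), AGP16 (72.5 ± 13.3), AGP12 (50.02 ± 2.36), AGP20 (48.9 ± 4.13), AGP18 (30.9 ± 2.36) and AGP4 (6.13 ± 2.92), ± SD with n = 3 each. With dexamethasone the neighbours AGP1 and AGP12, AGP20 and AGP18, and AGP18 and AGP16 overlapped in their libraries, and in mock AGP12 and AGP20 did. AGP16 thus stood above AGP12 and AGP20 in mock and below both with dexamethasone. Among all tested genes, AGP31 ranked above 99.6% with dexamethasone and 99.3% in mock on this scale, and AGP4 above 30.1% and 14.4%.

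The stretches upstream of 4 AG peptide genes are shown because the 2 close pairs differ in their values: AGP12 and AGP21 lay on the same side, AGP16 and AGP20 on opposite sides. Each is the 250 bases before the annotated gene start in RefSeq TAIR10.1, on the gene's own strand, with AGP12 on the plus strand of chromosome 3, AGP21 on the minus strand of chromosome 1, AGP16 on the minus strand of chromosome 2 and AGP20 on the minus strand of chromosome 3. Capitals mark TTTGTT or its reverse complement AACAAA, a motif that AP2 is known to bind.
AGP12: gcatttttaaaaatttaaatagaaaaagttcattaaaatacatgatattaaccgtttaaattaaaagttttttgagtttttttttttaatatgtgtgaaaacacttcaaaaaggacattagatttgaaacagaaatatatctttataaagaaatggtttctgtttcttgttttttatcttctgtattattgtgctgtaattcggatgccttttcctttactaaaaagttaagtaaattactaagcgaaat
AGP21: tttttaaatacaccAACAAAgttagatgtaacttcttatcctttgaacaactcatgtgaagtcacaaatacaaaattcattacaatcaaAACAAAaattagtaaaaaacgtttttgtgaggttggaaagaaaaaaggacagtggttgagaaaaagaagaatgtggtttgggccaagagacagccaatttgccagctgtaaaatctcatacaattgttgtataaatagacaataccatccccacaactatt
AGP20: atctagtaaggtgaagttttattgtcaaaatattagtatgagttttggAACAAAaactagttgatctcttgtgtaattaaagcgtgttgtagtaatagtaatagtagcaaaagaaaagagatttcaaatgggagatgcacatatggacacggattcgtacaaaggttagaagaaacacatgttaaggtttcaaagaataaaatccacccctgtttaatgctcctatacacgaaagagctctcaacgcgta
AGP16: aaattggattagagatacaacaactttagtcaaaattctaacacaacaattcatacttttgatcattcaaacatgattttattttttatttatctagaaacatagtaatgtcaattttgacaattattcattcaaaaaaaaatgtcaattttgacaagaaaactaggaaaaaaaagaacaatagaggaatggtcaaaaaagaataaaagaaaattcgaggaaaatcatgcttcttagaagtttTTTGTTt
Over the window of 250 bases before to 50 after the start, searched on both strands, TTTGTT was found for 7 of 10 genes, while 61.4% of all 27443 promoters held it. AGP12, AGP4 and AGP1 had no match. The match of AGP16 began 7 bases before the gene start and that of AGP20 lay 202 bases before it. TATAAA was found for 5 of 10 genes and in 52.15% of all promoters. The G-box CACGTG and the evening element AAAATATCT were found for 0 of 10 genes and in 7.68% and 2.82% of all promoters. These counts were near the background, and no match says only that the letters are not in the window.

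The genes most like AGP12 and AGP16, which had the highest and the lowest log2 fold change, were found among 11064 genes averaging at least 20 CPM by the root mean square difference of centred log2 CPM over the 6 libraries. For AGP12 the nearest were DGK3, a diacylglycerol kinase gene (0.092), AGP21 (0.111) and AT1G55690 (0.112). For AGP16 they were AT2G44920 (0.027), AT3G20680 (0.050) and LQY1 (0.052), the last encoding a thylakoid protein of photosystem II repair. LQY1 stood at 27.4, 24.6 and 22.9 CPM with dexamethasone, against 55.1, 40.8 and 39.1 CPM in mock. The distance includes the dexamethasone against mock difference, which was in view when the AGP genes were chosen. Genes with similar differences, such as AGP12 and AGP21, therefore lie close by this measure. Shared regulation of the named genes was not tested.

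Further family members were taken by gene name and tested. Of 26 further AGP names 20 had a locus in the counts, of which 15 lay under the filter on low counts. AGP3, AGP13, AGP22 and AGP30 had no count in any library. The other AG peptide genes matched to a locus, AGP13, AGP14, AGP22, AGP23, AGP24, AGP40 and AGP41, reached at most 9.1 CPM in a dexamethasone library and 10.7 CPM in a mock library. Levels of the names without a matched locus are not known here. The lysine-rich relatives of AGP18, AGP17 and AGP19, averaged 3.65 ± 1.03 and 3.80 ± 1.89 CPM with dexamethasone and 2.925 ± 2.244 and 1.44 ± 0.70 CPM in mock, and the pollen genes AGP6 and AGP11 had 1 to 10 counts a library. Of the 5 tested AGP genes none was called by edgeR, DESeq2 or limma-voom, with 0 at an unadjusted p under 0.05. With edgeR 13.9% of all tested genes were called, so few calls could come from so short a list. These 5 are also what remained after the 10 genes were chosen with the comparison known. The absence of calls among them is therefore not an independent result. The most abundant over the 6 libraries were AGP10, at 27.0 ± 5.32 CPM with dexamethasone and 24.2 ± 6.11 CPM in mock, and AGP26, at 16.6 ± 3.73 and 14.5 ± 2.96 CPM (SD, n = 3 each; log2 fold changes 0.15 ± 0.21 and 0.23 ± 0.25). These 2 share 29.3% and 44.8% of their 50-base words with another gene.

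Fasciclin-like AGPs (FLAs) join AGP stretches to fasciclin domains, which serve adhesion. Of 21 FLA names 20 had a locus, 13 were tested, and 2 were called higher and none lower, where 5.86% and 8.02% of all genes were called. At an unadjusted p under 0.05, 4 lay higher and 0 lower in edgeR, and DESeq2 and limma-voom called 0 lower as well. FLA7 rose, at 86.0, 92.6 and 92.9 CPM in dexamethasone libraries against 51.4, 44.9 and 66.5 CPM in mock libraries, a log2 fold change of 0.735 ± 0.149 (edgeR adjusted p = 0.00216). FLA4, also called SOS5 after its salt-sensitive roots, rose, at 52.6, 53.0 and 46.7 CPM with dexamethasone against 34.45, 35.8 and 40.0 CPM in mock (0.46 ± 0.15, edgeR adjusted p = 0.0448). The groups did not overlap in either gene. The FLA4 call was lost with the DESeq2 Wald test (adjusted p = 0.2) and without any 1 library but CT3 (up to 0.169, without Dx5). With the clock-gene score as a covariate neither gene was called (FLA7 0.0528, FLA4 0.238). The median log2 fold change of the 13 FLAs was 0.28, against 0.0035 for all tested genes. The FLA list was itself chosen with earlier results of these data known. For the 5 AGP genes the median was 0.095. Those 5 are what remained after other AGP genes were chosen with the comparison known. The FLA and AGP medians therefore cannot show whether the families differ.

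Early nodulin-like and xylogen proteins are further wall or membrane proteins with AGP stretches. Of 24 names, all with a locus, 11 were tested and 1 was called, on the higher side. Over all tested genes 5.86% were called higher and 13.9% in either direction, so nothing is read from this count. XYP1, a xylogen protein linked to xylem differentiation, rose, at 67.4, 69.6 and 61.0 CPM with dexamethasone against 50.1, 39.4 and 46.5 CPM in mock (0.55 ± 0.14, edgeR adjusted p = 0.014). This call was lost without CT2, Dx4 or Dx5 (adjusted p up to 0.103, without CT2) and with DESeq2 (0.0691). For enzymes that hydroxylate the prolines or build the glycans, 9 of 32 names matched a locus and 6 were tested. None was called by edgeR (background 13.9% of tested genes), DESeq2 or limma-voom, with 1 at an unadjusted p under 0.05 in edgeR. The prolyl 4-hydroxylase genes P4H2 and P4H5 averaged 48.7 ± 3.39 and 42.1 ± 6.85 CPM with dexamethasone, against 38.2 ± 4.41 and 36.0 ± 5.0 CPM in mock (SD, n = 3 each).

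**Figure D5:**
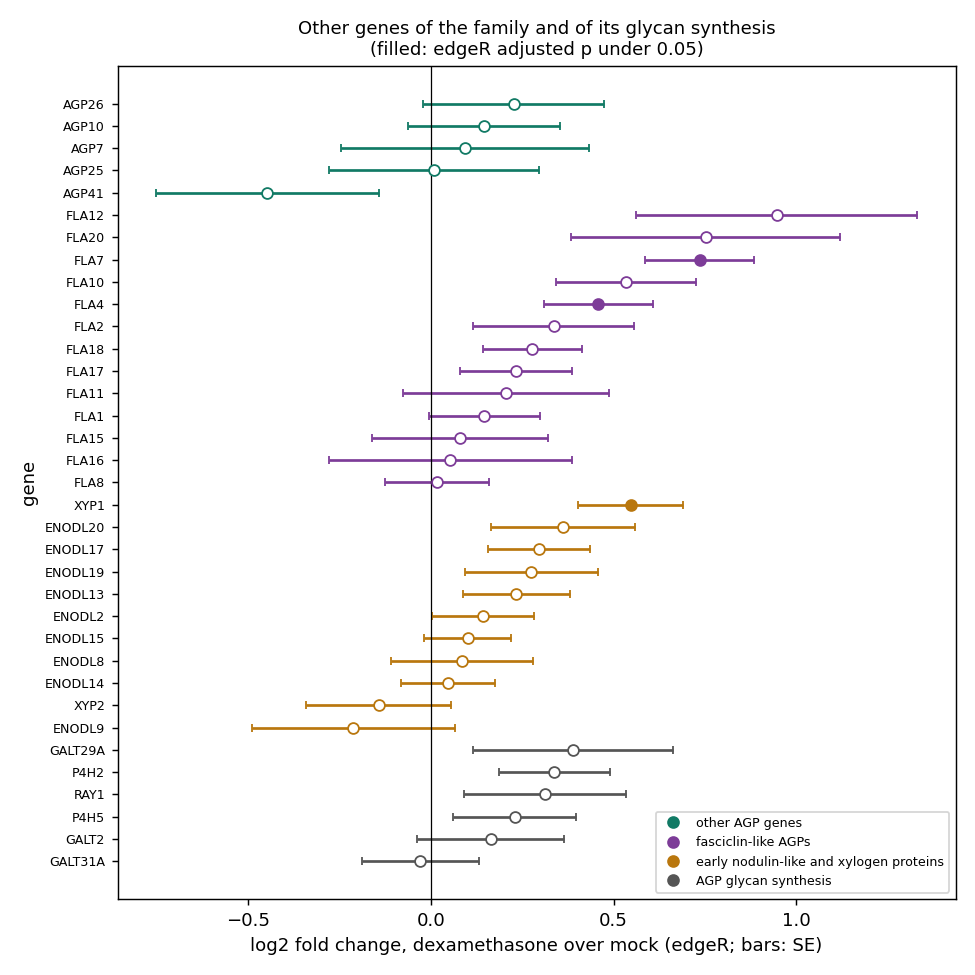
Log2 fold change, dexamethasone over mock, with SE (edgeR), of every tested gene among the other AGPs, the fasciclin-like AGPs, the early nodulin-like and xylogen proteins and the glycan synthesis enzymes. Filled points passed an adjusted p of 0.05: FLA7 at 0.735, FLA4 at 0.46 and XYP1 at 0.55.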

How the data were processed

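The authors deposited unnormalized counts, 1 whole number per locus and library, in a table named after HTSeq. The submitters' processing notes list TopHat, Bowtie, RSEM and Cufflinks, with neither version nor role. The labels' protocols name a stranded poly(A) library kit. Genome build, annotation release, strand setting and read filters were not stated in what was used here, so no coordinates are printed.

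The table held 28775 loci and 3 blank lines without a gene. Columns headed CT were taken as mock and Dx as dexamethasone. Column numbers were not used to tie columns to samples, because the Dx numbers match no title. Separate plants or pools behind the samples of 1 group are not documented; p-values therefore reflect only sample-to-sample spread, which may be technical. All 6 libraries were kept, since every within-group pair exceeded sampling noise (chi-square per gene, dexamethasone 1.27 to 1.36, mock 2.2 to 5.49). Pairs across the groups gave 5.54 (CT3 with Dx4) to 8.1 (CT1 with Dx6). The mock libraries CT1 and CT3, at 5.49, were thus about as far apart as CT3 and Dx4.

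Counts were tested with edgeR 4.0.16 (R 4.3.3): TMM scaling, filterByExpr with a minimum count of 10, the robust quasi-likelihood test, and Benjamini-Hochberg adjustment over 15857 genes with a threshold of 0.05. SE was taken as log2 fold change over root F. CPM uses TMM-scaled library sizes; CPM per kb divides by the union of RefSeq TAIR10.1 exons. The procedure was tested on simulated data. Alternatives were other scalings and filters, limma-voom (limma 3.58.1), DESeq2 1.42.0 with its Wald test, a clock-gene covariate and leaving out each library.

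The 10 genes and all lists were chosen with earlier results of these data known. The rule for genes to name beside the 10 took, per list, members past the threshold (up to the 6 smallest p-values) or the 2 most abundant. It also took the 3 genes nearest to the highest and the lowest AGP. The clock, leaf photosynthesis and anther genes under this rule are given only within their sums. AGP3, AGP6, AGP11, AGP13, AGP14, AGP17, AGP19, AGP22 to AGP24, AGP30, AGP40, AGP41, STM and CLV3 were named outside this rule, by class or absence. KNAT1, WUS, AP3, PI, AG, APL, XCP1 and XCP2 were named to show the uncalled members of their marker lists.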

Additional observations from a re-analysis of the deposited data

How the results depend on the processing

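No paired analysis was possible because the dexamethasone columns carry numbers that match no title. Under the 13 alternatives run, AGP16 stayed lower and the other 9 AGP transcripts higher in dexamethasone libraries. AGP12, AGP21, AGP15 and AGP16 lay past an adjusted p of 0.05 in all 13. AGP18 did so in 11, AGP31 and AGP9 in 8, and AGP20, AGP4 and AGP1 in 0. AGP31 and AGP9 were not past it with DESeq2 or without CT2, Dx4, Dx5 or Dx6. AGP16 was only just past it with the clock-gene covariate (edgeR adjusted p = 0.0486). Nothing is read from these numbers of alternatives, because the 10 genes were chosen with the comparison known. Every alternative also reused the same libraries. With DESeq2's Wald test 549 genes were called higher and 815 lower, with 1 AGP or FLA gene outside the 10 called higher and 0 early nodulin-like or xylogen genes. With the clock-gene covariate 0 AGP or FLA genes outside the 10 were called higher. Leaving out 1 library gave 441 to 1816 genes higher and 668 to 1974 lower, 1 to 5 AGP or FLA genes outside the 10 higher, and 0 to 2 early nodulin-like or xylogen genes; the upper end was without CT3 each time. AGP10, not called, had log2 fold changes of -0.022 (without Dx5) to 0.39 (without CT2). By longest transcript instead of exon union, AGP9 had 264.5 CPM per kb with dexamethasone and 200.2 CPM per kb in mock, and AGP16 48.3 CPM per kb with dexamethasone. The causes were not tested. Depth limits AGP4 and the AGP genes under the filter, which rest on few counts.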
